A study of Mus musculus with 19 samples.

Results

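This account covers 10 immediate early genes outside the AP-1 family, *Egr1*, *Egr3*, *Nr4a1*, *Klf2*, *Klf6*, *Dusp1*, *Zfp36*, *Ier2*, *Ier3* and *Ier5*, among the 54352 genes counted in each of 19 RNA-seq libraries. The 10 genes were chosen from a list of early response genes with earlier results of these libraries known, CMP knockdown libraries included, so every comparison of the members that holds CMP libraries is given as a description with no p-value. Mouse C57BL6 hematopoietic stem cells carrying a doxycycline-inducible shRNA were transplanted into sub-lethally irradiated C57BL/6-CD45.1; cKit-w41 mice, which need no high radiation dose to accept a graft, and no competitor marrow was added. After 10 weeks the animals ate doxycycline food for 6 days, and zsGreen+ cells, which report shRNA expression, were sorted as common myeloid progenitors (CMP) or as LSK cells (Lineage- Sca1+ cKit+, the compartment that holds stem cells and multipotent progenitors). The shRNAs were sh10 and sh20, both against the lncRNA *Spehd*, and a control against *Renilla* luciferase, which mouse cells lack. There were 4 *Renilla*, 3 sh10 and 2 sh20 libraries from CMPs and 4, 3 and 3 from LSK cells. Every group therefore shared the donor strain, the host strain, the irradiation, the vector and the doxycycline. Replicates carry letters, and the labels do not say whether each letter is a separate animal, so the p-values measure only the spread between these libraries.

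Immediate early genes are transcribed within minutes of a growth factor, cytokine or stress signal, from promoters already poised for it, and need no new protein for their induction. Kinase cascades such as the ERK pathway act on serum response factor, which binds the CArG box, and on CREB, which binds the cAMP response element (CRE). Some of the products are transcription factors that pass the signal on, others are brakes that end it, and several of the messages are short-lived. In blood progenitors, *Egr1* and *Nr4a1* are known as genes tied to stem cell quiescence, and *Klf2* keeps lymphocytes quiescent. Cell sorting itself is also known to induce such genes.

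The libraries held between 3647318 and 5965155 counts on genes, with a median of 4918631. In CMPs the totals did not overlap between shRNAs, with 3857980 to 4314959 for *Renilla*, 4918631 to 5228700 for sh10 and 5680969 to 5965155 for sh20. The share of reads aligned to more than 1 place did not overlap either, at 43.7% to 45.6%, 41.0% to 43.2% and 47.6% to 47.9% in that order. Genes with at least 1 count numbered 18552 to 20173, 19042 to 20275 and 17174 to 18066. No counted gene is named *Spehd*, so no measure of the knockdown was taken. The labels of the cell types were checked against marker genes. *Ly6a*, which encodes Sca1, had 51.4 CPM (counts relative to the TMM-scaled library total) on average in *Renilla* LSK cells and 5.13 CPM in *Renilla* CMPs, as the gates require. All 6 erythroid and megakaryocyte markers were higher in *Renilla* CMPs than in *Renilla* LSK cells, whereas all 7 CMP and myeloid markers, such as *Mpo* and *Elane*, were lower, which goes against a myeloid label on those markers. The T cell genes *Cd3d*, *Cd3e* and *Cd3g* summed to 21.9 to 47.4 CPM in *Renilla* CMPs and 42.8 to 97.7 CPM in sh20 CMPs, against 0.200 to 1.85 CPM in sh10 CMPs and at most 6.80 CPM in any LSK library, although CMPs are sorted as lineage-negative cells. The B cell gene *Cd79a* stood out in 1 library, CMP sh20 C, with 35.8 CPM against at most 0.922 CPM in any other CMP library. In bulk RNA, fewer cells of a type and less RNA per cell cannot be told apart.

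Of the 10 genes, 9 passed the filter on low counts in every comparison and *Egr3* passed in none. *Egr3*, a zinc finger factor related to *Egr1*, had 1 count in each of LSK *Renilla* A, LSK *Renilla* B and LSK sh10 C and 0 in the other 16 libraries. A count of 0 allows up to 3 counts, or between 0.503 and 0.823 CPM over these libraries, and *Egr3* was therefore not detectable at this depth in CMPs. Levels of different genes were set side by side per kilobase of exonic sequence. In *Renilla* CMPs *Ier2* was the most abundant, with a mean of 106 CPM per kb, followed by *Ier3* with 20.0, *Dusp1* with 19.4 and *Zfp36* with 17.9 CPM per kb. *Ier5* had 16.1, *Klf6* 13.1, *Klf2* 12.6, *Egr1* 11.2 and *Nr4a1* 6.33 CPM per kb. In *Renilla* LSK cells *Ier2* again had the highest mean, 109 CPM per kb, and *Nr4a1* the lowest of the 9 detected genes, 3.28 CPM per kb.

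*Dusp1* was the member that was low with both *Spehd* shRNAs in CMPs. It encodes a nuclear phosphatase that switches off MAP kinases and is itself induced by them, a feedback brake on the signal. *Dusp1* lies on the minus strand of chromosome 17, at 26505590 to 26562128 of GRCm38 in GENCODE vM21, and that span overlaps *Ergic1* on the other strand, and reads of the 2 genes over shared bases cannot be told apart, since the library kit does not keep strand. Its levels were 21.2, 22.4 and 22.1 CPM in the sh10 CMP libraries, 27.4 and 31.8 CPM in the sh20 CMP libraries, and 69.3, 37.5, 54.6 and 95.3 CPM in the *Renilla* CMP libraries. All 5 *Spehd* shRNA libraries lay below all 4 *Renilla* libraries. The fitted log2 fold change was -1.35 (standard error 0.26, n = 5 and 4) for both shRNAs together, -1.55 (0.28) for sh10 and -1.09 (0.32) for sh20. Since totals differ between these groups, log2 total counts were also added, in a fit of all 19 libraries in 6 groups. There the log2 fold change for both shRNAs was -1.06. That fit also changes the libraries and groups used, so the part of the covariate alone cannot be read from it. In LSK cells *Dusp1* had 69.2 ± 12.8 CPM (SD, n = 4) with *Renilla* shRNA, 55.5 ± 22.4 CPM (SD, n = 3) with sh10 and 72.7 ± 15.9 CPM (SD, n = 3) with sh20, and these groups overlapped.

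*Klf2*, *Nr4a1* and *Zfp36* had another pattern in CMPs, with every sh10 library below every *Renilla* library and sh20 libraries within or above the *Renilla* range or just below it, and *Ier5* differed between the *Spehd* shRNAs only. *Klf2* encodes a zinc finger factor of quiescent lymphocytes and endothelium. It had 5.35, 4.79 and 6.89 CPM in the sh10 CMP libraries, 17.6 and 33.4 CPM in the sh20 CMP libraries, and 22.8, 18.3, 30.9 and 21.3 CPM in the *Renilla* CMP libraries. The sh10 libraries were far below the other 6, and the sh20 and *Renilla* libraries overlapped. *Nr4a1*, an orphan nuclear receptor induced by antigen receptor and growth factor signals, had 6.18, 4.39 and 8.14 CPM with sh10, 25.7 and 20.0 CPM with sh20, and 21.5, 13.2, 38.0 and 16.1 CPM with *Renilla* shRNA. Here too every sh10 library was below every other CMP library. *Zfp36* encodes tristetraprolin, which binds AU-rich elements and hastens the decay of cytokine and early response messages. It had 33.2, 31.5 and 49.5 CPM with sh10, 84.4 and 74.9 CPM with sh20, and 57.2, 50.4, 64.5 and 76.0 CPM with *Renilla* shRNA in CMPs. *Ier5*, a gene known as a partner of the heat shock factor, had 31.1, 37.1 and 45.5 CPM with sh10 and 93.1 and 61.2 CPM with sh20, and both groups overlapped the *Renilla* range of 41.4 to 73.7 CPM.

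**Figure D1:**
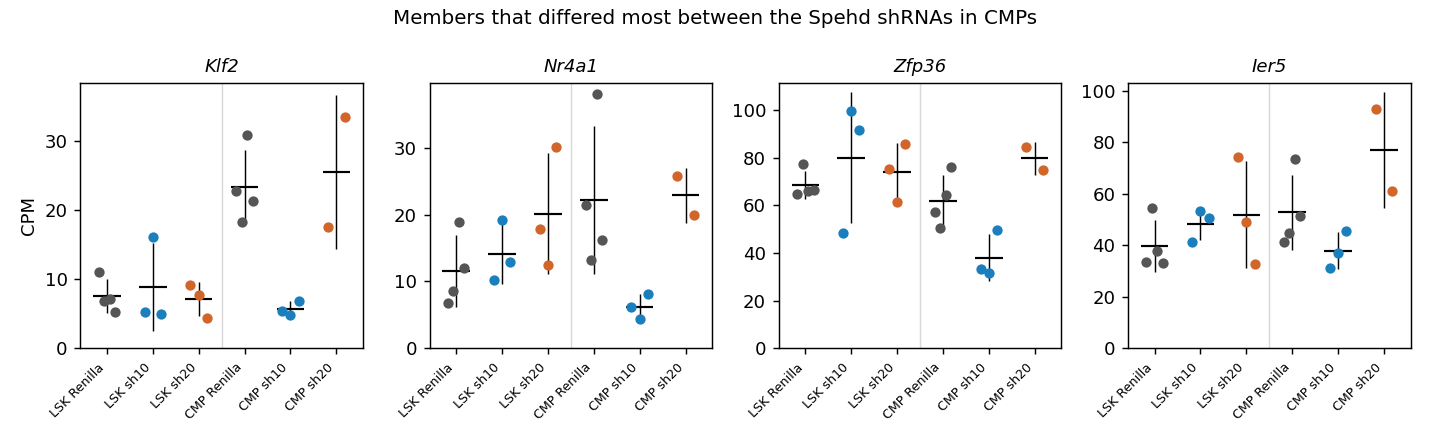
Level (CPM after TMM, vertical axis from 0) of *Klf2*, *Nr4a1*, *Zfp36* and *Ier5* in each library, by cell type and shRNA. Points are libraries, horizontal lines are group means and vertical lines are ±1 SD; in CMPs the 3 sh10 libraries lie below both sh20 libraries for all 4 genes.

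The direct comparison of the shRNAs in CMPs, sh20 minus sh10, asks whether both hairpins gave the same state of these genes. It is made of the libraries used in choosing the members, so its values are a description. *Klf2* had 2.19 on the log2 scale (standard error 0.35), *Nr4a1* 1.90 (0.46), *Zfp36* 1.10 (0.23) and *Ier5* 1.05 (0.28), and in all 4 genes both sh20 libraries lay above all 3 sh10 libraries. *Dusp1* had 0.46 (0.33), also without overlap, and the other 4 lay between 0.03 and 0.42. How many of all genes separate in this way was not counted in any comparison. A lack of overlap, here and elsewhere, therefore only describes the libraries. The median of the 9 was 0.46 where that of all genes was 0.00. As counts past the threshold of 0.05 in edgeR's quasi-likelihood F-test, adjusted over the whole table, 3 of the 9 were called, *Klf2*, *Nr4a1* and *Zfp36*, where 6.41% of all 13824 genes were in either direction, and nothing is read from that count. It rests on 3 libraries against 2, and was 0 without CMP sh10 A, 0 without CMP sh10 B, 1 without CMP sh20 B, 2 without CMP sh10 C, CMP *Renilla* A or CMP *Renilla* D, 2 with log2 total counts in the fit and 0 with the replicate letter as a block. Over the 9 fits with a library left out the log2 fold change ran from 1.66 to 2.56 for *Klf2*, from 1.69 to 2.12 for *Nr4a1* and from 0.98 to 1.32 for *Zfp36*.

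Some markers of other blood cells moved with this comparison. T cell genes were examined as a list of 12, chosen after the values were seen. The markers named here and below were chosen after their values were seen, so they are a description. *Cd3e*, which was on the list of 6 lymphoid markers, had at most 1.03 CPM in sh10 CMPs and 11.8 and 33.0 CPM in the sh20 libraries. In *Renilla* CMPs *Cd3e* had 8.41 to 16.4 CPM, and it was higher with sh20 than with sh10 (log2 fold change 5.32). It was the 1 called of the 4 lymphoid markers tested, of which 2 had positive and 2 negative values. *Il7r*, the receptor of IL-7, had 1.85 to 3.55 CPM in sh10 CMPs and 0.166 and 0.869 CPM in the sh20 libraries. *Dntt*, the lymphoid terminal transferase, had a log2 fold change of -0.41. *Lck* had 11 to 30.5 CPM in sh10 CMPs, 71.1 to 88.9 CPM in sh20 CMPs and 85.0 to 124 CPM in *Renilla* CMPs, and *Tcf7* had 9.78 to 40.2, 63.4 to 99.6 and 66.9 to 118 CPM. *Cd4* and *Cd8a* stayed at or below 7.08 CPM in every CMP library and overlapped between sh10 and sh20. The 12 genes summed to 29.4 to 83.0 CPM in sh10 CMPs, 274 to 304 CPM in sh20 CMPs and 267 to 359 CPM in *Renilla* CMPs. Of the 5 monocyte and macrophage markers, *C1qa* was the 1 called, higher with sh20 than with sh10 (log2 fold change 2.12). The 5 summed to 208 to 296 CPM in sh10 CMPs and 246 to 458 CPM in sh20 CMPs. The 4 red cell markers all had positive values, none called, and summed to 10.0 to 20.0 CPM in sh10 CMPs, 35.5 to 40.2 CPM in sh20 CMPs and 21.7 to 59.4 CPM in *Renilla* CMPs. Of 8 LSK gate and stem cell markers 1 was called higher with sh20, and 6 had positive and 2 negative values (median 0.72). Of 7 CMP and myeloid markers 1 was called lower, and 2 had positive and 5 negative values (median -0.29). The part of these markers in the differences of *Klf2*, *Nr4a1* and *Zfp36* was not tested.

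**Figure D2:**
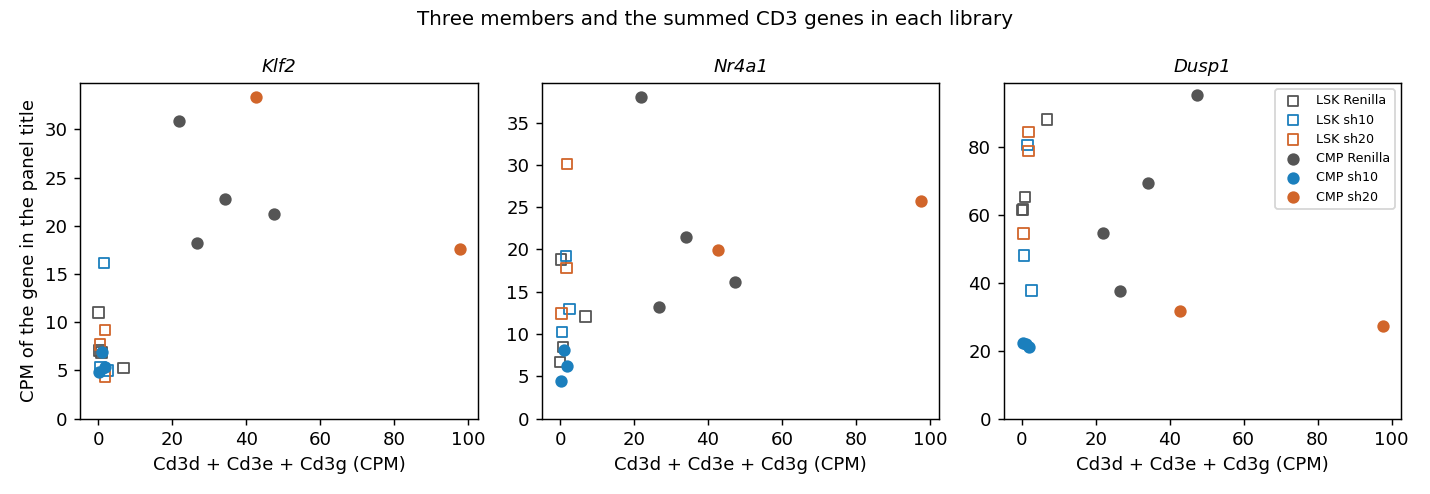
Level (CPM) of *Klf2*, *Nr4a1* and *Dusp1* in each of the 19 libraries against the summed level of *Cd3d*, *Cd3e* and *Cd3g* (CPM). Filled circles are CMP and open squares LSK libraries, coloured by shRNA. The 6 CMP libraries with 21.9 CPM or more of the CD3 genes hold the 6 highest values of *Klf2*. No such order is seen for *Nr4a1* or *Dusp1*. Among those 6, CMP sh20 B has the most CD3 (97.7 CPM) and the lowest *Klf2* (17.6 CPM).

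Promoters of the members were read for the letters of the elements named above, in the window from 250 bases before to 50 bases after the start in RefSeq (GRCm38.p6), on both strands. The table held 7 of the 10 members. The CRE, TGACGTCA, was found in the *Dusp1* promoter, 143 bases before the start, and is present in 1.79% of the 32851 promoters of the table. The CArG box (CC, a run of A or T, then GG) was found in the *Zfp36* promoter, 58 bases before the start, and is present in 1.63% of promoters. The CRE half-site TGACG, part of the full CRE as well, was found 4 times in *Nr4a1*, 3 times in *Dusp1* and once in *Klf2*, and 20.8% of promoters hold it. *Ier3*, *Ier5* and *Klf6* had no match to these letters or to TATAAA, which 13.6% of promoters hold and none of the 7 members did. The windows around the matches in *Dusp1* (chr17:26508588-26508635, minus strand) and *Zfp36* (chr7:28379257-28379306, minus strand) are shown first, with the element in capitals.
*Dusp1*: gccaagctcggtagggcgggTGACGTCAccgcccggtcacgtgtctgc
*Zfp36*: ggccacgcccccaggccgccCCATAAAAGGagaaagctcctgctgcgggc

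The whole windows follow for *Klf2* (chr8:72318812-72319111, plus strand) and *Nr4a1* (chr15:101266596-101266895, plus strand), the pair with the largest log2 fold changes of CMPs against LSK cells with *Renilla* shRNA, with half-sites on either strand in capitals. A match is a description of the sequence and not a site at which binding was measured.
*Klf2*: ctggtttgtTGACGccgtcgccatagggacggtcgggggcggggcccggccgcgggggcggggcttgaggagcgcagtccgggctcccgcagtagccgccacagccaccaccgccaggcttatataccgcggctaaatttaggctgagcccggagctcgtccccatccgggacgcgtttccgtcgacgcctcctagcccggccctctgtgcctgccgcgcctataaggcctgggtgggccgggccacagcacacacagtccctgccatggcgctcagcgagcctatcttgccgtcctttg
*Nr4a1*: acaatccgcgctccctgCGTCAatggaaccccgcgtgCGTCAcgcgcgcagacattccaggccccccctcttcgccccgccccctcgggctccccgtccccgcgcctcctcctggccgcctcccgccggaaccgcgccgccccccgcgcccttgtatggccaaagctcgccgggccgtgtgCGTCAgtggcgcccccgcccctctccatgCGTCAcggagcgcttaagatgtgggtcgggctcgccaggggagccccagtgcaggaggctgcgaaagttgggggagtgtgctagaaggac

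The values of each *Spehd* shRNA against *Renilla* in CMPs are given without a test. With sh10 all 9 members had a negative log2 fold change, with a median of -0.63 where all genes had -0.01, except that *Egr1* changed sign under 3 of 17 alternatives. *Klf2* had -2.04 (standard error 0.32), *Nr4a1* -1.84 (0.41), *Zfp36* -0.71 (0.20), *Ier3* -0.63 (0.32), *Ier5* -0.49 (0.24), *Ier2* -0.47 (0.16), *Klf6* -0.31 (0.29) and *Egr1* -0.17 (0.39), beside *Dusp1* above. *Klf2*, *Nr4a1*, *Zfp36*, *Ier2* and *Dusp1* did not overlap between sh10 and *Renilla* CMPs. With sh20 the median of the 9 was 0.06, and apart from *Dusp1* they lay between -0.39 (0.18) for *Ier2* and 0.57 (0.26) for *Ier5*. With 2 sh20 libraries these values moved widely over the 17 alternatives, *Ier2* from -0.74 to -0.097 and *Ier5* from 0.22 to 0.85, and *Egr1*, *Nr4a1*, *Klf2* and *Klf6* changed sign in at least 1. Both comparisons share the *Renilla* libraries. As counts past the threshold, 2 members were called with sh10, where 1.97% of all genes were, 0 with sh20, where 6.17% were, and 0 with both shRNAs together, where 0.116% were; since the choice of members used these libraries, nothing is read from those counts. With both shRNAs together 8 of the 9 had a negative log2 fold change, and *Ier5* had 0.03 (0.32). Markers moved with sh10 against *Renilla* in CMPs too. Of 8 LSK gate and stem cell markers 6 were negative, 1 of them called, with a median of -0.81. All 4 red cell markers (median -1.43) and all 4 lymphoid markers tested (median -0.57, 1 called) were negative. Of 7 CMP and myeloid markers 5 were positive (median 0.26). The part of these markers was not tested.

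**Figure D3:**
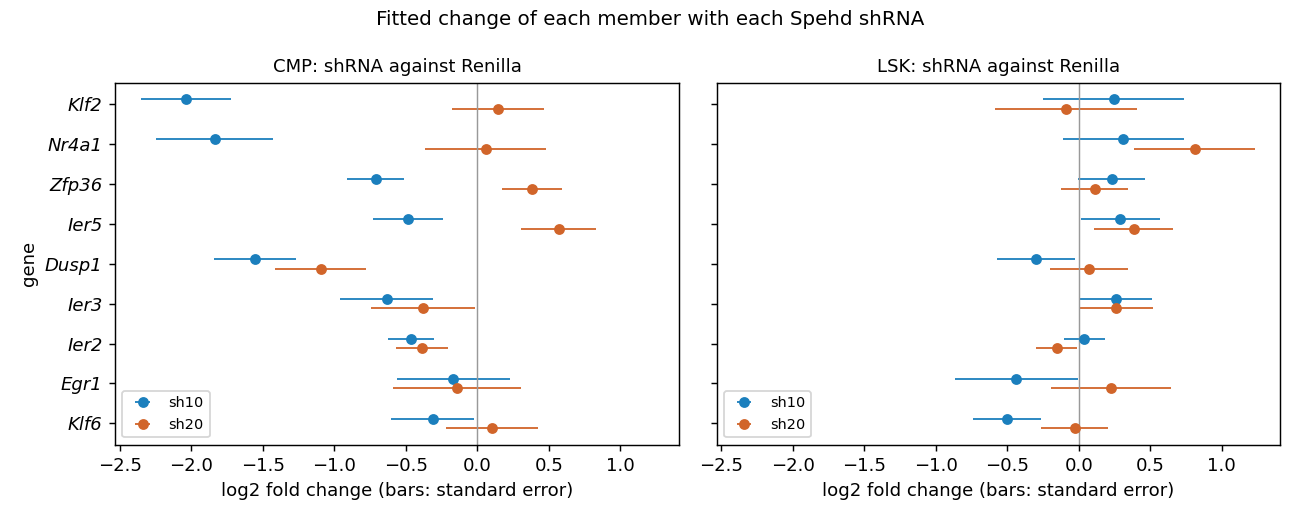
Fitted log2 fold change (horizontal axis) of each detected member with sh10 or sh20 against *Renilla* shRNA, in CMPs on the left and LSK cells on the right; bars are ±1 standard error. In CMPs *Klf2* and *Nr4a1* sit near -2 with sh10 and near 0 with sh20, *Dusp1* is below -1 with both, and in LSK cells the points lie between -0.50 and 0.81.

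*Ier2*, *Ier3*, *Egr1* and *Klf6* varied less between shRNAs in CMPs. *Ier2*, a short nuclear protein of growth factor responses, had 120, 118 and 113 CPM with sh10, 146 and 95.8 CPM with sh20, and 161, 145, 140 and 197 CPM with *Renilla* shRNA. One sh20 library fell inside the *Renilla* range and the other 4 *Spehd* shRNA libraries below it. *Ier3*, an early response gene linked to cell survival, had 12.6, 13.4 and 18 CPM with sh10, 12.8 and 21.6 CPM with sh20, and 18.9, 13.7, 29.5 and 28.3 CPM with *Renilla* shRNA, and the groups overlapped. *Egr1*, the zinc finger factor that is a classical serum response gene, had 41.6, 55.7 and 37.2 CPM with sh10, 56.4 and 33.0 CPM with sh20, and 43.2, 26.2, 38.5 and 93.3 CPM with *Renilla* shRNA. Its spread within groups was wide, and its group means, from 32.5 to 51.8 CPM over all 6 groups, did not differ beyond it. *Klf6*, a zinc finger factor of stress and macrophage responses, had 46.3, 42.5 and 50.3 CPM with sh10, 36.5 and 85.4 CPM with sh20, and 42.4, 46.6, 72.8 and 67.4 CPM with *Renilla* shRNA.

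**Figure D4:**
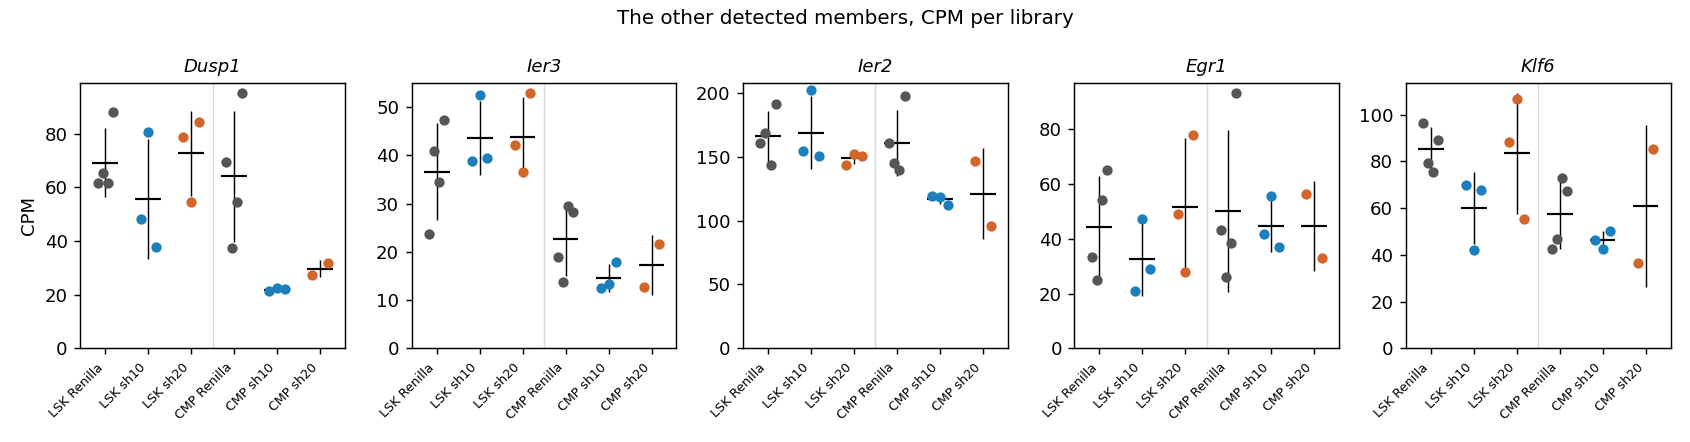
Level (CPM after TMM, vertical axis from 0) of *Dusp1*, *Ier3*, *Ier2*, *Egr1* and *Klf6* in each library; points are libraries, horizontal lines group means and vertical lines ±1 SD. All 5 CMP libraries with a *Spehd* shRNA lie below every *Renilla* CMP library for *Dusp1*, and *Ier3* is lower in every CMP than in every LSK library with sh10 or sh20, whereas the *Renilla* libraries overlap.

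Between the cell types with *Renilla* shRNA, the values are a description too, since the *Renilla* CMP libraries are shared with the comparisons used in choosing the members. *Klf2* had 22.8, 18.3, 30.9 and 21.3 CPM in CMPs and 11, 6.88, 7.09 and 5.26 CPM in LSK cells, with no overlap and a value of 1.65 on the log2 scale (standard error 0.39). It was the 1 of 9 members past the threshold, where 19.8% of all 15066 genes were, and nothing is read from that count. *Nr4a1* had 0.98 (0.39) and *Ier3* -0.66 (0.27), and both overlapped between cell types. *Klf6* had 42.4 to 72.8 CPM in CMPs and 75.6 to 96.5 CPM in LSK cells, without overlap, and a log2 fold change of -0.54 (0.26). The remaining 5 lay between -0.12 and 0.44. *Cd3e* was also higher in *Renilla* CMPs than in *Renilla* LSK cells (log2 fold change 4.18). It was the 1 called of the 6 lymphoid markers, of which 4 had positive and 2 negative values with a median of 0.08. The 12 T cell genes summed to 267 to 359 CPM in *Renilla* CMPs and 63.1 to 94.5 CPM in *Renilla* LSK cells. Of the 4 red cell markers 3 were higher in CMPs, summing to 21.7 to 59.4 CPM there and 3.46 to 7.28 CPM in LSK cells. Of the 6 mature neutrophil markers 5 were lower in CMPs, with sums of 1.2 to 10.5 CPM against 5.18 to 291 CPM, and of the 5 monocyte and macrophage markers 2 were lower, with sums of 201 to 349 CPM against 316 to 428 CPM. The part of these markers in the differences of the members was not tested.

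Between cell types with sh10, the values are again a description, since the sh10 CMP libraries were used in choosing the members. *Ier3* had -1.54 in CMPs minus LSK cells on the log2 scale (standard error 0.31), *Dusp1* -1.31 (0.31), *Nr4a1* -1.15 (0.46), *Zfp36* -1.04 (0.24), *Klf2* -0.61 (0.45), *Ier2* -0.50 (0.16), *Klf6* -0.34 (0.30) and *Ier5* -0.32 (0.29), and *Egr1* was the 1 of 9 with a positive value, 0.50 (0.47). *Ier3* had 38.8, 52.4 and 39.5 CPM in the sh10 LSK libraries, all above its sh10 CMP libraries. *Zfp36* had 48.5, 99.7 and 91.7 CPM in sh10 LSK cells, and the lowest of them overlapped the highest sh10 CMP library. *Klf2* had 5.31, 16.1 and 5.0 CPM in sh10 LSK cells, and the cell types overlapped. Past the threshold were 4 of 9 members, *Ier3*, *Dusp1*, *Zfp36* and *Ier2*, where 16.1% of all genes were in either direction, and nothing is read from that count. *Ier2* lost its call in 13 of 19 fits with a library left out, and had -0.32 without LSK sh10 B. The 6 mature neutrophil markers summed to 51.2 to 286 CPM in sh10 LSK cells and 1.88 to 10.9 CPM in sh10 CMPs. Of the 5 monocyte and macrophage markers 2 were lower in CMPs, with sums of 208 to 296 CPM against 310 to 445 CPM. The part of these markers was not tested.

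With sh20, likewise as a description, *Klf2* had 1.85 in CMPs minus LSK cells (standard error 0.48), with 17.6 and 33.4 CPM in CMPs and 9.21, 7.71 and 4.38 CPM in LSK cells. *Ier3* had -1.34 (0.36), with 42.1, 36.6 and 52.9 CPM in the sh20 LSK libraries. *Dusp1* had -1.28 (0.35), with 78.9, 54.6 and 84.5 CPM in LSK cells against 27.4 and 31.8 CPM in CMPs. None of the 3 overlapped between cell types. These 3 of 9 members were past the threshold, where 14.6% of all genes were, and nothing is read from that count, which was 0 without LSK sh20 C, 1 without CMP sh20 B, 2 without CMP sh20 C and 2 with log2 total counts in the fit. In the sh20 libraries the neutrophil markers summed to 4.56 to 7.50 CPM in LSK cells and 4.17 to 4.31 CPM in CMPs. *Cd3e* was higher in sh20 CMPs than in sh20 LSK cells (log2 fold change 5.78), as was *Cd79a* (4.69). These were the 2 called of 6 lymphoid markers, of which 4 had positive and 2 negative values. The *Cd79a* value rests on CMP sh20 C, with 35.8 CPM. CMP sh20 B had 0.498 CPM, within the 0.182 to 1.71 CPM of the sh20 LSK libraries. The part of these markers was not tested.

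**Figure D5:**
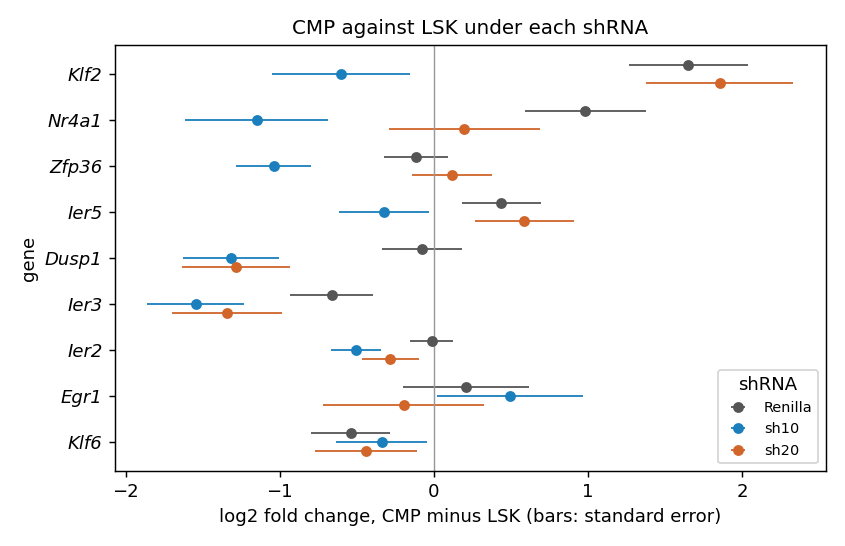
Fitted log2 fold change of each detected member in CMPs minus LSK cells, for libraries with the same shRNA; bars are ±1 standard error. *Klf2* is above 1.5 with *Renilla* and sh20 and below 0 with sh10, and *Dusp1* is near 0 with *Renilla* and below -1 with both *Spehd* shRNAs.

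Within LSK cells no member differed between shRNAs past the threshold. The share of all genes called was 0% in each of these comparisons, namely both *Spehd* shRNAs against *Renilla*, sh10 against *Renilla*, sh20 against *Renilla* and sh20 against sh10, where 492, 457, 1152 and 1268 genes had an unadjusted p under 0.05. None of the 9 members had one in any of the 4, and DESeq2 called 0 members in each. For both shRNAs together the log2 fold changes lay between -0.25 for *Klf6* and 0.58 for *Nr4a1* (95% interval -0.23 to 1.39). The interval for *Klf2* was -0.82 to 0.99 and that for *Dusp1* -0.62 to 0.42. For sh20 minus sh10 in LSK cells *Klf2* had -0.33 (interval -1.49 to 0.82). *Nr4a1* had 17.8, 12.4 and 30.1 CPM with sh20, 10.3, 19.2 and 13 CPM with sh10 and 6.70, 8.50, 18.8 and 12.1 CPM with *Renilla* shRNA, and the groups overlapped. *Klf6* with sh10, at 69.9, 42.2 and 67.6 CPM, was below all 4 *Renilla* LSK libraries (log2 fold change -0.50, adjusted p = 0.995). The knockdown effect in CMPs minus that in LSK cells was -1.46 (standard error 0.52) for *Nr4a1*, -1.22 (0.35) for *Dusp1* and -1.03 (0.50) for *Klf2*. Since it holds the CMP comparison it is a description, and 0 members were called where 0.0531% of all genes were.

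Ordered by mean CPM over the 6 groups, most neighbouring groups overlapped in the range of their libraries and so did not differ beyond their spread. For *Dusp1* the sh10 LSK, sh20 CMP and sh10 CMP groups stood apart in that order, at 55.5, 29.6 and 21.9 CPM. For *Klf2* the break lay between *Renilla* CMPs, at 23.3 CPM, and sh10 LSK cells, at 8.81 CPM. For *Zfp36* it lay between *Renilla* CMPs, at 62.0 CPM, and sh10 CMPs, at 38.1 CPM. *Egr1*, *Ier2*, *Ier3*, *Ier5*, *Nr4a1* and *Klf6* had no such break.

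Other immediate early genes, a list of 32 with *Myc*, *Btg2*, *Socs3* and the like, were read beside the members. This list and the upstream list below were written with earlier results of these data known. Their adjusted p-values, from edgeR's quasi-likelihood F-test, are therefore descriptions of these libraries. Between sh20 and sh10 CMPs, 27 were tested, 3 were higher and 2 lower with sh20, where 6.41% of all genes were called, and the median was 0.15. *Ier5l*, a relative of *Ier5*, had 3.59 to 6.38 CPM with sh10 and 0.166 and 0.522 CPM with sh20 (adjusted p = 0.0310), *Trib1*, a pseudokinase, was higher with sh20 by 3.15 (0.0411), *Gadd45g*, a stress sensor, higher by 1.83 (0.0121) and *Btg2*, an antiproliferative gene, higher by 1.33 (0.0223). Between CMPs and LSK cells with *Renilla* shRNA, 3 of 28 were higher and 9 lower in CMPs, where 19.8% of all genes were called, with a median of -0.49. *Arc* had at most 0.230 CPM in CMPs and 0.818 to 3.02 CPM in LSK cells (adjusted p = 0.0277), and the log2 fold change was -1.85 for *Pim1*, a survival kinase (0.000667), 1.63 for *Gadd45g* (0.00419) and -1.28 for *Csrnp1* (0.000921). With sh10, 1 was higher and 10 lower of 28, where 16.1% of all genes were called, and with sh20, 4 were higher and 9 lower of 28, where 14.6% were. In LSK cells none of the 27 tested per shRNA was called. The kinases and factors that act upstream, a list of 18 with *Srf*, *Elk1* and *Creb1*, had 1 lower and 0 higher between sh20 and sh10 CMPs, *Creb1* with -0.59 (adjusted p = 0.0238). Between CMPs and LSK cells with *Renilla* shRNA 1 of the 18 was higher and 5 were lower in CMPs, where 19.8% of all genes were called. *Mkl2*, a coactivator of serum response factor, had -1.30 (adjusted p = 0.0126), the kinases *Rps6ka3* and *Rps6ka1* had -1.23 (0.0179) and -0.64 (0.000117), and *Elk3*, a partner of serum response factor, had -0.86 (0.0116).

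Among AP-1 genes, of which 6 of 7 were tested, *Jun* had a log2 fold change of -1.89 with sh10 and -1.98 with sh20 against *Renilla* in CMPs, low with both shRNAs as *Dusp1* was. Of the 6, 2 were lower with sh10 (*Jun* and *Jund*), where 1.97% of all genes were called, and 4 with sh20 (*Jun*, *Jund*, *Fos* and *Fosl1*), where 6.17% were. All 6 had negative values for sh20 minus sh10, with 0 called where 6.41% of all genes were.

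Within groups the members moved together only in part. Over the 19 libraries, with each gene's log2 CPM taken as a deviation from its group mean, 26 of the 36 pairs of detected members had a positive Pearson r, with a median of 0.231. The most alike pair was *Dusp1* and *Egr1*, with r = 0.743, then *Dusp1* and *Ier3* with 0.656 and *Egr1* and *Ier2* with 0.597. *Klf2* was most like *Ier5*, with only 0.341, and *Klf6* most like *Klf2*, with 0.233. Of the 10484 genes that averaged 50 counts or more per library, those most like the mean of the members were *Gmpr* (r = 0.904), *Sorbs3* (0.858), *Rtl8c* (0.841), *Hmces* (0.826) and *Stard3nl* (0.826). All these libraries share their group means and normalization, and the values are descriptions.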

How the data were processed

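RNA from sorted CMPs and LSK cells was amplified with SMART-Seq v4 and sequenced. Per the study's methods and the submitters' processing notes, the authors aligned reads to mm10 with STAR, removed duplicates with Picard and deposited whole-number counts per gene from HTSeq. The methods give default parameters for all software, and for HTSeq-count the default counts a read only on the annotated strand, whereas the library kit does not keep strand. Each file held 54352 genes, of which 53775 matched GENCODE vM21, and 5 summary lines that name no gene were left out. Reads that aligned to more than 1 place were 39.6% to 50.9% of a library. Of uniquely aligned reads 51.9% to 53.8% were assigned to no gene, which under that default includes reads on the other strand of a gene. Groups were taken from the sample labels. The members and lists were chosen with earlier results of these data known, and the list of 12 T cell genes after its values were seen. Values of some listed genes are not reported here.

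Counts were tested with edgeR 4.0.16 in R 4.3.3 (TMM, filterByExpr with a minimum of 10 counts, quasi-likelihood F test, Benjamini-Hochberg over all genes tested, threshold 0.05). Comparisons within a cell type used its 9 CMP or 10 LSK libraries, and comparisons across cell types all 19. Standard errors are the log2 fold change over the root of F. Totals of 3647318 to 5965155 counts set the precision, and floors cover counting error only. All members were named. Of the other immediate early genes and their upstream genes, up to 4 past the threshold were named, by size of change, for sh20 against sh10 in CMPs and for the cell types with *Renilla* shRNA. *Jun* and the named markers were chosen after their values were seen. Also named were the 5 genes most like the members by Pearson r. Alternatives were DESeq2 1.42.0, 2 other normalizations, 2 other filters, the replicate letter as a block, log2 total counts as a covariate, other groupings of the libraries, and each library left out. The fit was tested on simulated counts.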

Additional observations from a re-analysis of the deposited data

Results flagged for a closer look

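Of 18 sets of 4 *Renilla* libraries examined for a value far from the rest, a check that chance meets in about 1 in 20, 2 stood out. *Dusp1* had 88.1 CPM in LSK *Renilla* D, where the other 3 had 61.6 to 65.3 CPM. *Zfp36* had 77.5 CPM in LSK *Renilla* B, where the other 3 had 64.6 to 66.7 CPM.

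The *Spehd* shRNAs stood apart from each other in CMPs for *Klf2* (log2 fold change 2.19 for sh20 minus sh10), *Nr4a1* (1.90) and *Zfp36* (1.10). These are descriptions, since the libraries were used in choosing the members, and 0 of the 3 was called with the replicate letter as a block. Each was higher in both sh20 libraries than in all 3 sh10 libraries. The T cell genes *Cd3d*, *Cd3e* and *Cd3g* moved the same way, and their part was not tested.

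*Ier3* lay below the *Renilla* mean in every CMP library with a *Spehd* shRNA and above it in every such LSK library. The margins were small in places, with 21.6 CPM in CMP sh20 C against a mean of 22.6 CPM. LSK sh20 B had 36.62 CPM against a mean of 36.59 CPM. In both cell types the *Spehd* shRNA and *Renilla* libraries overlapped. The log2 ratio to the *Renilla* mean in CMPs minus that in LSK cells was -0.79 for both shRNAs, -0.88 for sh10 and -0.66 for sh20. *Ier5* lay on the same opposite sides of the *Renilla* means with sh10, with a difference of -0.76. The fitted difference for both shRNAs was -0.78 (standard error 0.35) for *Ier3* and was not called in edgeR, and the differences per shRNA were not tested.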

How the results depend on the processing

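Of 13 called values, 0 changed sign under any alternative run, fits without 1 library included, and of 95 uncalled values 38 did under at least 1. In the comparisons within LSK cells 0 members were called under every alternative run. Without a filter, 2 members were called between cell types with *Renilla* shRNA (1 with it), 1 for both shRNAs in CMPs (0 with it), 5 for sh10 in CMPs (2), 1 for sh20 in CMPs (0) and 1 for the knockdown effect in CMPs minus LSK cells (0). DESeq2 called 1 for both shRNAs in CMPs, 4 for sh10 and 1 for sh20. For both shRNAs in CMPs, upper quartile scaling, the shRNAs as separate groups and all 19 libraries in 1 fit also gave 1. Log2 total counts as a covariate gave 0 for sh10 in CMPs. This covariate was always added to the fit of all 19 libraries. Values with it are therefore matched by those of all 19 libraries in 1 fit, and not by the main fits within a cell type. Over fits without 1 library the count ran from 1 to 2 between cell types with *Renilla* shRNA, from 0 to 1 for both shRNAs in CMPs, from 0 to 4 for sh10, from 0 to 1 for sh20, from 0 to 4 for sh20 against sh10, from 3 to 4 between cell types with sh10 and from 0 to 3 with sh20. The cause was not tested. For both shRNAs in CMPs the log2 fold change of *Klf2* was -0.28 with log2 total counts and -1.41 without CMP sh20 C, against -0.76. Counts over all genes moved more, for both shRNAs in CMPs from 15 to 882 with DESeq2, 674 with separate shRNAs, 364 in 1 fit, 328 with upper quartile scaling, 29 with no filter, 24 with 10 counts in every library and 5 with log2 total counts, and for sh10 from 272 to 1209 with DESeq2, 797 with no filter, 451 with upper quartile scaling, 145 in 1 fit and 1 with log2 total counts. For sh20 against sh10 they went from 886 to 1982 with DESeq2, 1485 with no filter and 583 with log2 total counts, and for sh20 from 853 to 1709 with DESeq2 and 20 with log2 total counts. Upper quartile scaling moved the median of all genes between cell types with sh10 by -0.12. Depth limits *Egr3*, which had at most 1 count.

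With the replicate letter as a replicate block, 0 members were called for sh10 and 0 for sh20 against sh10 in CMPs, where *Klf2* had 2.12, *Nr4a1* 2.0 and *Zfp36* 1.09 on the log2 scale, and 28 genes in all were called against 886. Libraries that share a letter within a cell type had deviations that correlated between -0.111 and 0.103 over 16 pairs, and those that share a letter and shRNA across cell types between -0.00038 and 0.239 over 9 pairs, with a median of 0.0542 against -0.0297 for other letters. Not every pair was over 0.1, so the letters were not taken to pair the libraries.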
